A study of Mus musculus with 11 samples.

Results

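The Sox transcription factors of neural cells were taken as 10 genes by name and arranged by subgroup: Sox1, Sox2 and Sox3 (SoxB1), Sox4 and Sox11 (SoxC), Sox5 and Sox6 (SoxD), and Sox8, Sox9 and Sox10 (SoxE). All 10 were found among the 53453 gene rows of the series, and all 10 reached 1 TPM in at least 5 libraries and so entered the test. Transcript levels had been measured by RNA sequencing in primary neurospheres of embryonic mouse brain at E15.5, free-floating spheres in which neural precursors are grown. There were 6 libraries of untreated Control embryos and 5 of embryos with Klf5 overexpression, while the strain, the way Klf5 was overexpressed and the cells in which it was driven are not described in the labels. A library was taken as 1 embryo, since the labels' protocol counts embryos of each kind in the same numbers. Values are TPM, a unit corrected for transcript length and scaled to the total of the library.

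Sox proteins bind DNA through a high mobility group domain, the HMG box, which fits into the minor groove and bends the helix, and they act largely together with partner factors. SoxB1 proteins keep neural progenitors undifferentiated and are held to act in part redundantly, SoxC proteins act in neurons that are starting to differentiate, SoxD proteins lack a transactivation domain and modulate other Sox proteins, and SoxE proteins specify and mature glia. In the embryonic brain Sox9 precedes gliogenesis and switches on Sox10 in the oligodendrocyte lineage, where Sox5 and Sox6 restrain differentiation. Klf5 is a zinc finger factor of the Krüppel-like family that binds GC-rich and CACCC-type sites.

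Klf5 itself stood at 0.849 ± 0.297 TPM (SD, n = 6) in control libraries and 75.8 ± 18.5 TPM (SD, n = 5) with overexpression, and the groups did not overlap. The rows of a library summed to 814208 to 846780 TPM in controls and 730832 to 821967 TPM with overexpression. Both groups thus fell short of the 1000000 of the full scale, and the overexpression libraries mostly by more. Sequencing depth is unknown, so no counting interval is given. By Xist and Y-linked transcripts the control libraries came from 3 female and 3 male embryos and the overexpression libraries from 3 female and 2 male ones. The cultures were rich in markers of radial glia, with a summed level of 4289 to 7329 TPM in controls and 3491 to 5334 TPM with overexpression. By control means Fabp7 held most of this sum, at 3596 TPM, while Hopx stayed under 1 TPM in every library. The oligodendrocyte progenitor markers summed to 1634 to 2800 and 1671 to 2038 TPM and the neuronal markers to 32.5 to 118 and 26.7 to 103 TPM. Of the microglial markers Aif1, Cx3cr1 and Tyrobp were at 0 in every library, as were Foxd3 of the neural crest and Ttr of the choroid plexus. In these bulk libraries fewer cells of a type and less RNA per cell cannot be told apart.

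Of the 10 Sox members 1 changed with Klf5 overexpression, Sox3, which was lower (limma on log2(TPM + 1), Benjamini-Hochberg adjusted p under 0.05 over all 13549 genes tested). In the same fit 504 genes, 3.72% of those tested, were called in either direction, and 194 genes, 1.43%, were called lower. At an unadjusted p under 0.05 there were 4 of 10 members (Sox3, Sox5, Sox6 and Sox11), against 1702 of all tested genes, or 12.6%. Sox3 was also the 1 member of 10 whose groups did not overlap, against 446 genes or 3.29% of all genes tested. The fold changes lay above 0 for Sox5, Sox8 and Sox11 and below 0 for the other members, with a median log2 fold change of -0.12 against -0.04 over all tested genes. The signs of Sox2 and Sox9, both close to 0, turned when TPM was rescaled to the rows given, and that of Sox9 also turned when the mitochondrial and ribosomal RNA-like rows were left out of the scaling. Within subgroups the balance of members shifted at SoxB1, from Sox3 towards Sox2, and at SoxD, from Sox6 towards Sox5.

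**Figure D1:**
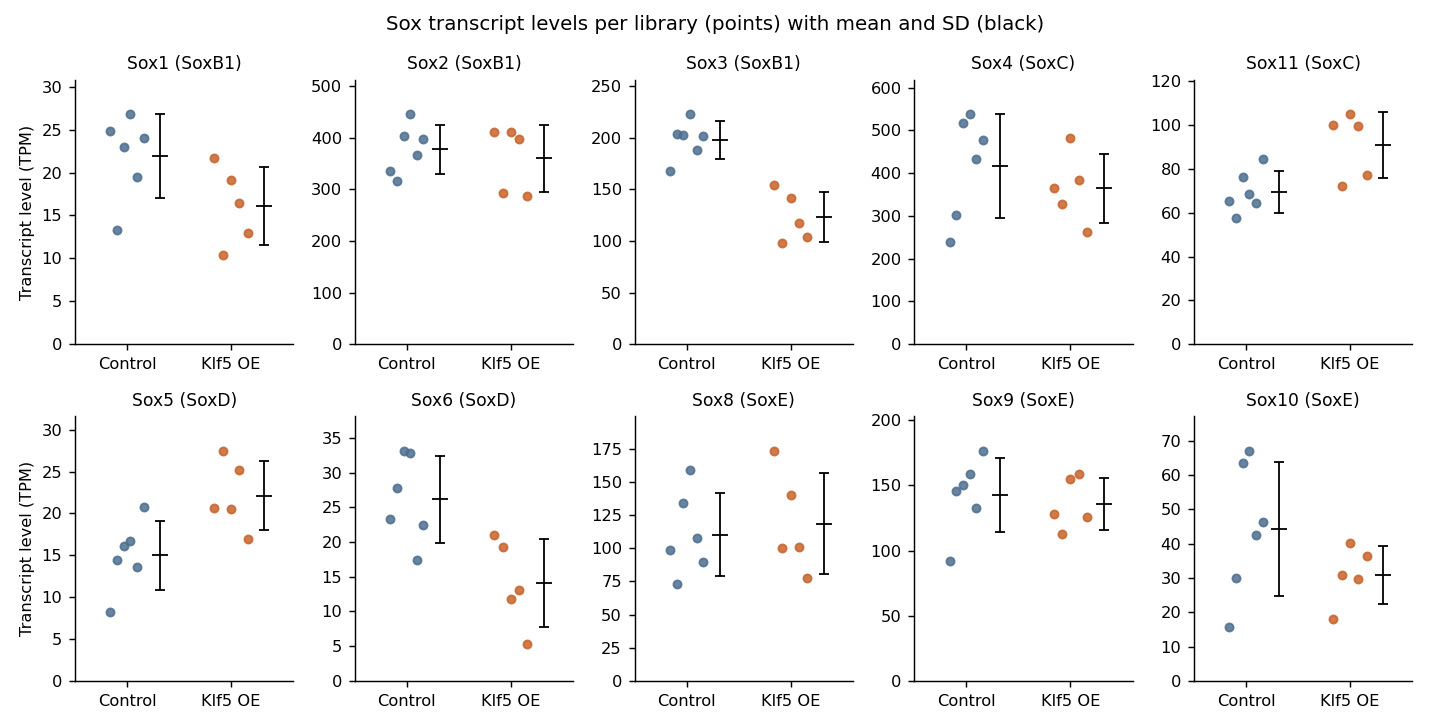
Transcript level in TPM (vertical axes, from 0, each gene on its own scale) of the 10 Sox members in the 6 control and 5 Klf5 overexpression libraries. Points are libraries, and the black mark and bar beside them are the mean and SD. Sox3 is the panel in which all overexpression libraries lie under all controls, at 98.4 to 154 against 168 to 223 TPM.

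In controls the levels, which TPM makes comparable between genes, followed the order Sox4, Sox2, Sox3, Sox9, Sox8, Sox11, Sox10, Sox6, Sox1 and Sox5, from 417 ± 121 TPM (SD, n = 6) for Sox4 down to 15.0 ± 4.14 TPM for Sox5. The one step between neighbours with ranges that did not overlap was from Sox2 at 377 ± 47.5 TPM to Sox3 at 198 ± 18.4 TPM (SD, n = 6). Sox4 exceeded Sox2 in 4 of 6 control libraries and Sox6 exceeded Sox1 in 3 of 6, so these neighbours had no fixed order. By control mean among all tested genes, Sox4 ranked 200, Sox2 215 and Sox3 486, while Sox5 ranked 6643. With overexpression the mean of Sox9 stood above that of Sox3, which it exceeded in 4 of 5 libraries. The last 3 places were then held by Sox5, Sox1 and Sox6, each above the next in 4 of 5 libraries. The 10 genes together came to 1422 ± 258 TPM (SD, n = 6) in controls and 1276 ± 220 TPM (SD, n = 5) with overexpression, with ranges of 1069 to 1735 and 1006 to 1527 TPM that largely overlapped.

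Members differed in how tightly control embryos agreed. Sox3 had the smallest coefficient of variation over the 6 controls at 9.3%, followed by Sox2 at 12.6% and Sox11 at 13.7%. Sox10, a factor of the oligodendrocyte lineage, had the largest at 44.3%. The lowest Sox10 level of each group lay in control replicate 1, at 15.8 TPM, and in overexpression replicate 1, at 17.9 TPM, and these 2 libraries also held the lowest Pdgfra of their groups, at 22.4 and 24.6 TPM. Pdgfra is the growth factor receptor that marks oligodendrocyte progenitors. The pattern was not particular to that lineage, since both libraries also held the lowest Dcx, Syt1, Syp and Stmn2 of their groups, which are neuronal markers. Control replicate 1 was also the lowest control for Sox3, Sox4, Sox5 and Sox9.

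The SoxB1 genes are intronless in the annotation and closely related. Their HMG boxes are shown because the subgroup's balance shifted between genes that share this domain. The coding sequences, of 79 codons, are from GENCODE M21 transcripts on GRCm38, and capitals mark bases that differ from Sox2. Sox1 lies on chr8:12396505-12396741 (plus strand), Sox2 on chr3:34650536-34650772 (plus strand) and Sox3 on chrX:60892771-60893007 (minus strand).
Sox2 HMG box: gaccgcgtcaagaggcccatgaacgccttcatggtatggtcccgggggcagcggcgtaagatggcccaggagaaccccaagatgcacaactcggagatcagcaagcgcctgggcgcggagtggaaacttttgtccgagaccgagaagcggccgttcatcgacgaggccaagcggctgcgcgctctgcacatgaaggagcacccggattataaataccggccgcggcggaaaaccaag
Sox1 HMG box: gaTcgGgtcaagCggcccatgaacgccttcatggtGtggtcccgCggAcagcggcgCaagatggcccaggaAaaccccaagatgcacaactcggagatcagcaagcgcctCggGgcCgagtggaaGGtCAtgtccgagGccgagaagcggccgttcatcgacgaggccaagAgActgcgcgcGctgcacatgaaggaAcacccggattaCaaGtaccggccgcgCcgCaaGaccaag
Sox3 HMG box: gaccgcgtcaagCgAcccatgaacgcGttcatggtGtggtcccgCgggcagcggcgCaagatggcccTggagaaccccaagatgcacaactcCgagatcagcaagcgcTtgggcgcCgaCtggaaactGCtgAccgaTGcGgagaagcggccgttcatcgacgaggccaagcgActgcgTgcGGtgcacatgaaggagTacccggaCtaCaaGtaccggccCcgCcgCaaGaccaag
Sox1 differed from Sox2 at 25 bases and 3 residues, and Sox3 from Sox2 at 29 bases and 7 residues. The longest stretch identical in register was 38 bases between Sox1 and Sox2 and 32 bases between Sox2 and Sox3. No stretch of 50 bases anywhere in their transcripts was shared between members, on either strand.

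Sox3 (ENSMUSG00000045179, chromosome X, 60891366 to 60893430, minus strand, GRCm38) is the X-linked SoxB1 gene, expressed in neural progenitors and in the developing hypothalamus and pituitary. Control libraries had between 168 and 223 TPM, with a median of 202 TPM. The overexpression libraries, replicates 1 to 5, had 154, 98.4, 141, 118 and 104 TPM. All 5 lay under the lowest control, and replicate 1 came nearest to it. Sox3 fell 1.61-fold, the control mean being 198 ± 18.4 TPM (SD, n = 6) and the overexpression mean 123 ± 24.1 TPM (SD, n = 5). On the log2 scale the change was -0.70 ± 0.13 (SE, limma adjusted p = 0.00429). The call held in all 23 other fits, with adjusted p between 0.000112 and 0.0259. Of the 7 radial glia markers 6 were tested, Slc1a3 was called lower and Vim higher, and the summed ranges of the 7 overlapped. Fabp7, which held most of the control sum, was lower without being called (limma adjusted p = 0.069). The part of cell composition in the Sox3 result was not tested.

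Because Sox3 is on the X chromosome, its levels are given by sex, with no test. Female controls had 188 to 203 TPM (n = 3) and female overexpression libraries 98.4 to 118 TPM (n = 3). Male controls had 168 to 223 TPM (n = 3) and male overexpression libraries 141 to 154 TPM (n = 2). Sox3 was lower with overexpression within each sex, without overlap. Whether the size of the difference depends on sex was not tested.

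Sox2 (ENSMUSG00000074637, chromosome 3, 34650405 to 34652461, plus strand), the SoxB1 factor of neural and pluripotent stem cells, did not pass the test. Control libraries ran from 317 to 445 TPM with a median of 382 TPM, and the overexpression libraries had 411, 292, 411, 398 and 287 TPM. Of these, 3 lay within the control range and 2 under it. Sox2 thus had a log2 fold change of -0.08 ± 0.13 (SE, 95% interval -0.36 to 0.21, limma adjusted p = 0.922).

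Sox1 (ENSMUSG00000096014, chromosome 8, 12395295 to 12400126, plus strand), a SoxB1 gene largely confined to the neural lineage, was the least abundant of the subgroup. It had 13.3 to 26.8 TPM with a median of 23.5 TPM in controls and 21.7, 10.4, 19.1, 16.4 and 13.0 TPM with overexpression. All 5 overexpression libraries were under the control mean of 21.9 TPM, and 2 were under every control. The log2 fold change of -0.43 ± 0.20 (SE, 95% interval -0.86 to 0.00) missed the threshold, with a limma adjusted p of 0.399.

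Sox3 made up a smaller part of the SoxB1 pool with overexpression. Its share of the summed SoxB1 level was 33.2% ± 2.42 (SD, n = 6) in controls, ranging from 31.8 to 38.1%, and 24.7% ± 1.59 (SD, n = 5) with overexpression, ranging from 22.1 to 26.3%. The Sox2 share went from 63.1% ± 1.84 (SD, n = 6) to 72.1% ± 1.82 (SD, n = 5), with no overlap, and the Sox1 share was 3.66% and 3.19%. The summed SoxB1 level was 597 ± 64.3 TPM (SD, n = 6) and 499 ± 90.5 TPM (SD, n = 5), and its ranges overlapped.

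The ratio of 2 members within a library does not depend on how the library was scaled, apart from the pseudocount, and 8 such ratios inside the subgroups were compared. The log2 ratio of Sox2 to Sox3 was 0.92 ± 0.14 (SD, n = 6) in controls and 1.54 ± 0.13 (SD, n = 5) with overexpression. The difference of 0.62 had an exact permutation p of 0.00216 (two-sided), the smallest that 462 splits allow, and 0.00866 after adjustment over the 8 pairs. This ratio contains Sox3 and is not independent of its call. The Sox1 to Sox2 ratio differed by -0.35 (exact permutation p = 0.0325, adjusted 0.0649) and passed when control replicate 2 was left out (adjusted p = 0.0212). The Sox1 to Sox3 ratio differed by 0.26 (exact permutation p = 0.162, adjusted 0.26).

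**Figure D2:**
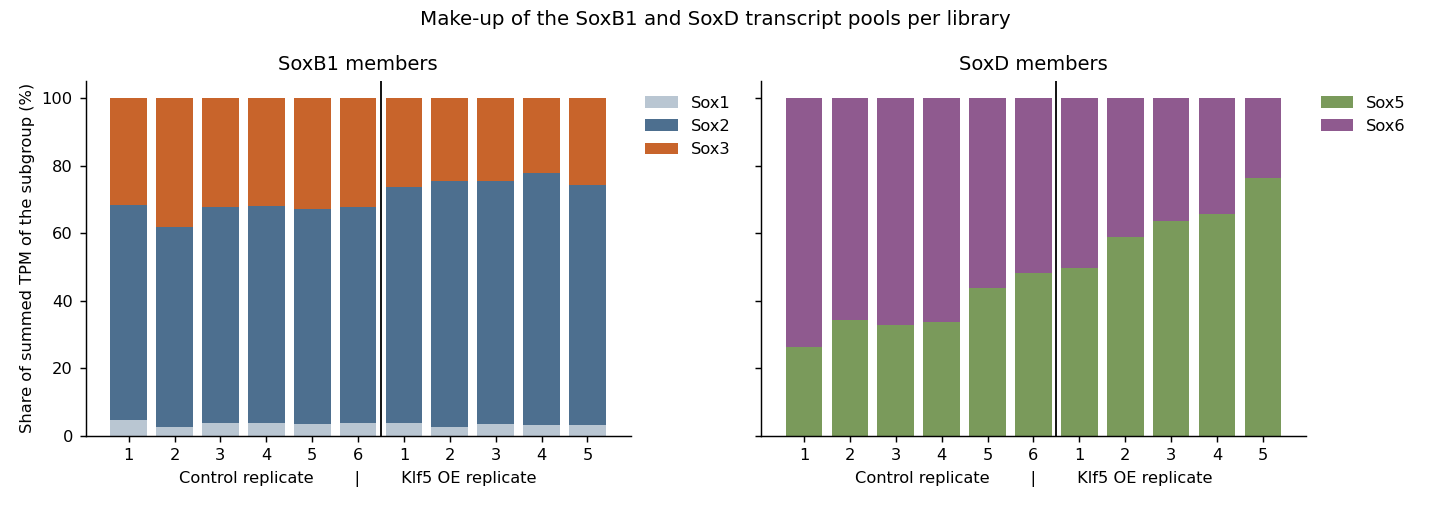
Share of the summed SoxB1 (left) and SoxD (right) transcript level held by each member, in percent (vertical axis), 1 bar per library, controls left of the line. Sox3 holds 31.8 to 38.1% of SoxB1 in controls and 22.1 to 26.3% with overexpression, and Sox5 holds 26.2 to 48.2% and 49.5 to 76.3% of SoxD.

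The 3 genes with the pattern most like that of Sox3 over the 11 libraries, by the root mean square difference in log2(TPM + 1) after centring each gene, were Zfp36l1, Rimklb and Paqr4. Zfp36l1, which encodes an RNA-binding protein that promotes decay of AU-rich mRNAs, was nearest at a difference of 0.08 and fell from 90.2 ± 12.9 to 54.8 ± 11.4 TPM (SD, n = 6 and 5). Rimklb, at 0.11, fell from 20.7 to 12.2 TPM, and Paqr4, at 0.12, fell from 49.1 to 31.1 TPM. Their limma adjusted p were 0.009, 0.00585 and 0.00927. Genes chosen for likeness to a lower gene over the same libraries are bound to be lower, so these values only describe them. Zfp36l1 and Paqr4 share exon positions with genes on the opposite strand (Gm26669 and Pkmyt1), and whether counting used strand is not described in the labels. Among the members themselves the closest pair was Sox2 and Sox9 at 0.21, and the farthest was Sox5 and Sox6 at 0.88.

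Sox2 lies inside Sox2ot, a long noncoding gene on the same strand (chromosome 3, 34104270 to 34682619) whose exons do not touch it, and which was looked at after its values were seen. Sox2ot had 16.9 to 23.8 TPM in controls and 4.77, 10.8, 14.3, 10.2 and 14.6 TPM with overexpression, without overlap. Its mean fell from 19.8 ± 3.04 in controls to 10.9 ± 3.99 TPM (SD, n = 6 and 5), and the log2 fold change was -0.87 ± 0.22 (SE, limma adjusted p = 0.0394). In 14 of the 23 other fits Sox2ot missed the threshold (adjusted p up to 0.15), among them those without control replicate 1, 3, 4, 5 or 6 or without overexpression replicate 2 or 4. Sox1ot, which spans Sox1, had 1.58 and 1.07 TPM (limma adjusted p = 0.745).

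Neither SoxC member passed the test, and their fold changes had opposite signs. Sox4 (ENSMUSG00000076431, chromosome 13, 28948919 to 28953713, minus strand), a SoxC factor of newborn neurons and progenitors, had 238 to 538 TPM in controls with a median of 455 TPM. With overexpression Sox4 had 364, 328, 483, 384 and 263 TPM, all within the control range. Its log2 fold change was -0.16 ± 0.21 (SE, 95% interval -0.60 to 0.28, limma adjusted p = 0.879). The exons of Sox4 overlap the opposite-strand noncoding gene Gm26735, and 53.6% of the 100-base words of its transcript also occur in Gm26735 on either strand. Gm26735 itself rose from 5.80 ± 3.16 in controls to 14.5 ± 3.35 TPM (SD, n = 6 and 5), and its log2 fold change was 1.27 ± 0.26 (SE, limma adjusted p = 0.00952). Without a filter on low values Gm26735 missed the threshold (adjusted p = 0.0634). If strand was not used, reads of the 2 genes cannot be told apart.

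Sox11 (ENSMUSG00000063632, chromosome 12, 27334264 to 27342574, minus strand), the SoxC partner of Sox4 in neuronal differentiation, had 57.6 to 84.3 TPM with a median of 66.8 TPM in controls. The overexpression libraries had 99.9, 72.1, 105.0, 99.8 and 77.1 TPM, of which 5 lay above the control mean and 3 above every control. Means were 69.4 ± 9.49 and 90.8 ± 15.0 TPM (SD, n = 6 and 5), and the log2 fold change was 0.38 ± 0.13 (SE, 95% interval 0.10 to 0.66). It did not pass the test as fitted (limma adjusted p = 0.176). It passed under 4 other scalings, with adjusted p of 0.0115 after trimmed-mean scaling, 0.0139 after quantile normalization, 0.0405 after rescaling to the rows given and 0.0181 after rescaling without mitochondrial and ribosomal RNA-like rows. The Sox4 to Sox11 log2 ratio was 2.52 ± 0.39 (SD, n = 6) and 1.98 ± 0.19 (SD, n = 5), a difference of -0.54 (exact permutation p = 0.026, adjusted 0.0649) that passed without control replicate 1 (adjusted p = 0.0212).

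The SoxD pair had the largest difference in ratio of the 8 pairs compared, although neither gene passed the test on its own. Sox5 and Sox6 encode long, multi-exon proteins that pair through a coiled coil and carry very similar HMG boxes. Those boxes are printed because the ratio of these 2 genes differed between groups. Capitals mark bases of Sox6 that differ from Sox5.
Sox5 HMG box: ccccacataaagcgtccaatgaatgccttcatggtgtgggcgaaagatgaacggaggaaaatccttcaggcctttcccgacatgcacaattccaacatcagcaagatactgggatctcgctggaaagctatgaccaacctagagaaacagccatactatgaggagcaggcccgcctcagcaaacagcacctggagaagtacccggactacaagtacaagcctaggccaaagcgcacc
Sox6 HMG box: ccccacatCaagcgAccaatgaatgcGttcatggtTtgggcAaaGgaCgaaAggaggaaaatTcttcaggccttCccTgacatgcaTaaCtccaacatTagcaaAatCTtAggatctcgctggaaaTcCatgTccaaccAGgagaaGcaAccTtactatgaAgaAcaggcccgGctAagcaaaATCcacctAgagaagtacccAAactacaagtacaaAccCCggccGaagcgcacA
The 2 boxes differed at 41 bases spread over 79 codons and at 5 residues, and the longest stretch identical in register was 15 bases.

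Sox5 (ENSMUSG00000041540, chromosome 6, 143828425 to 144781977, minus strand) takes part in the timing of oligodendrocyte development and in corticofugal neuron identity. It had 8.28 to 20.8 TPM with a median of 15.3 TPM in controls and 20.7, 27.5, 20.5, 25.2 and 16.9 TPM with overexpression. All 5 overexpression libraries were above the control mean, and 2 were above every control. Means were 15.0 ± 4.14 and 22.1 ± 4.18 TPM (SD, n = 6 and 5). The log2 fold change of Sox5 was 0.56 ± 0.20 (SE, 95% interval 0.14 to 0.98) and missed the threshold, at a limma adjusted p of 0.175. None of the 23 other fits called it, with adjusted p of 0.0663 to 0.396.

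Sox6 (ENSMUSG00000051910, chromosome 7, 115470872 to 116038796, minus strand), the second SoxD gene of the oligodendrocyte lineage, had 17.5 to 33.1 TPM with a median of 25.5 TPM in controls. The overexpression libraries had 21.1, 19.3, 11.7, 13.1 and 5.25 TPM. All 5 were under the control mean and 3 were under every control. The overexpression mean, 14.1 ± 6.33 TPM, was 1.86-fold under the control mean of 26.2 ± 6.22 TPM (SD, n = 5 and 6), and the log2 fold change was -0.94 ± 0.27 (SE, 95% interval -1.52 to -0.36). This is the greatest difference in size among the 10 members, and as fitted it missed the threshold (limma adjusted p = 0.0765). It passed with array weights (0.0169), with the replicate number as a block, a fit that leaves out the unmatched control replicate 6 (0.0308), and without overexpression replicate 1 (0.0386).

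The balance of Sox5 and Sox6 differed between the groups. The log2 ratio of Sox5 to Sox6 was -0.78 ± 0.47 (SD, n = 6) in controls, where Sox6 exceeded Sox5 in every library, and 0.73 ± 0.56 (SD, n = 5) with overexpression, where Sox5 exceeded Sox6 in 4 of 5. The control ratios ran from -1.39 to -0.10 and the overexpression ratios from -0.03 to 1.52, so the groups lay side by side without overlapping. The difference of 1.50 had an exact permutation p of 0.00216 (two-sided), the smallest possible, and 0.00866 after adjustment over 8 pairs. The difference passed in each of the 11 fits that left out 1 library, with adjusted p of 0.019 to 0.0381. Groups that do not overlap stay apart when 1 library is left out, so these passes add no separate support. Sox5 made up 36.5% ± 8.02 (SD, n = 6) of the SoxD pool in controls and 62.8% ± 9.80 (SD, n = 5) with overexpression, while the pool was 41.1 ± 8.19 and 36.2 ± 9.48 TPM.

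**Figure D3:**
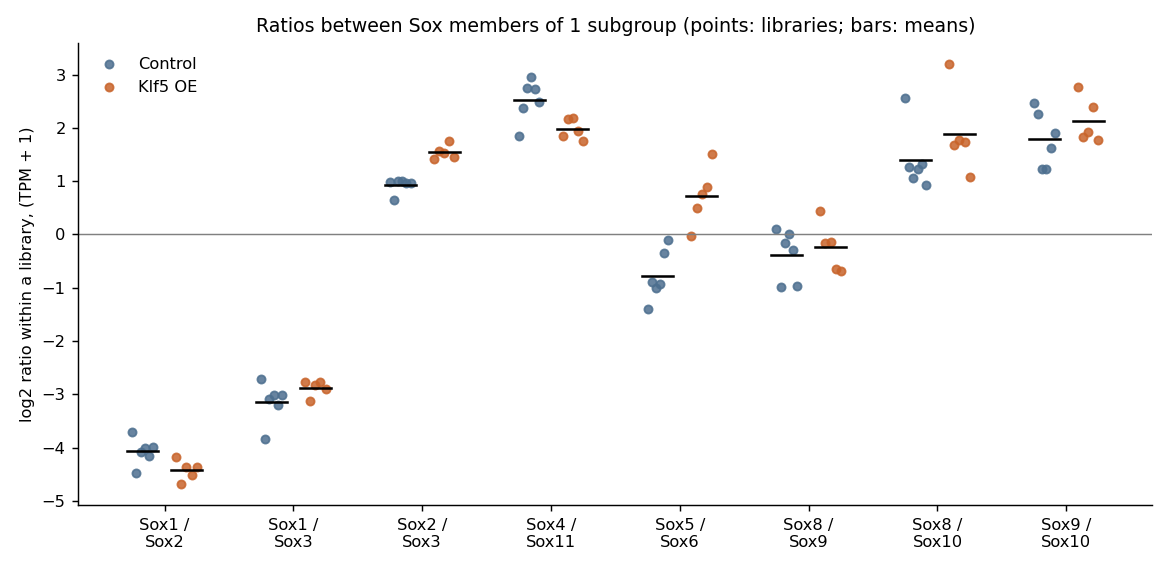
Log2 ratio of 2 members of 1 subgroup within each library (vertical axis, TPM + 1), for the 8 pairs compared. Points are libraries and bars are group means. Sox2 to Sox3 and Sox5 to Sox6 are the pairs in which the groups do not overlap, with differences of 0.62 and 1.50.

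The SoxE genes did not pass the test. Sox9 (ENSMUSG00000000567, chromosome 11, 112782224 to 112787760, plus strand), the factor that starts gliogenesis, had 92.4 to 177 TPM with a median of 148 TPM in controls. With overexpression it had 128, 112, 155, 159 and 126 TPM, all inside the control range. The log2 fold change was -0.05 ± 0.15 (SE, 95% interval -0.38 to 0.27, limma adjusted p = 0.962).

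Sox8 (ENSMUSG00000024176, chromosome 17, 25565892 to 25570686, minus strand), a SoxE gene that shares functions with Sox9 and Sox10 in oligodendrocytes, had 73.0 to 159 TPM with a median of 103 TPM in controls. It had 173, 100.1, 140.0, 101.3 and 77.8 TPM with overexpression, and 1 of these lay above the control range. For Sox8 the log2 fold change was 0.09 ± 0.21 (SE, 95% interval -0.36 to 0.54, limma adjusted p = 0.949). Part of Sox8, 7.39% of its 100-base words, also occurs in the opposite-strand transcript 2810468N07Rik, which had 29.4 and 27.9 TPM (limma adjusted p = 0.949).

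Sox10 (ENSMUSG00000033006, chromosome 15, 79154908 to 79165240, minus strand), required for oligodendrocyte differentiation and the neural crest, had 15.8 to 67.0 TPM with a median of 44.4 TPM in controls. With overexpression it had 17.9, 30.8, 40.2, 29.6 and 36.4 TPM, within the control range and narrower than it. The log2 fold change was -0.40 ± 0.30 (SE, 95% interval -1.05 to 0.24, limma adjusted p = 0.714), and it was -0.66 without control replicate 1 and -0.23 without overexpression replicate 1. The ratios between SoxE members did not pass either: Sox8 to Sox9 differed by 0.15 (exact permutation p = 0.615, adjusted 0.615), Sox8 to Sox10 by 0.49 (exact permutation p = 0.288, adjusted 0.329) and Sox9 to Sox10 by 0.35 (exact permutation p = 0.247, adjusted 0.329). Sox9 stood at 48.5% and 48.0% of the SoxE pool, Sox8 at 37.3% and 40.9% and Sox10 at 14.2% and 11.1%, in controls and with overexpression.

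**Figure D4:**
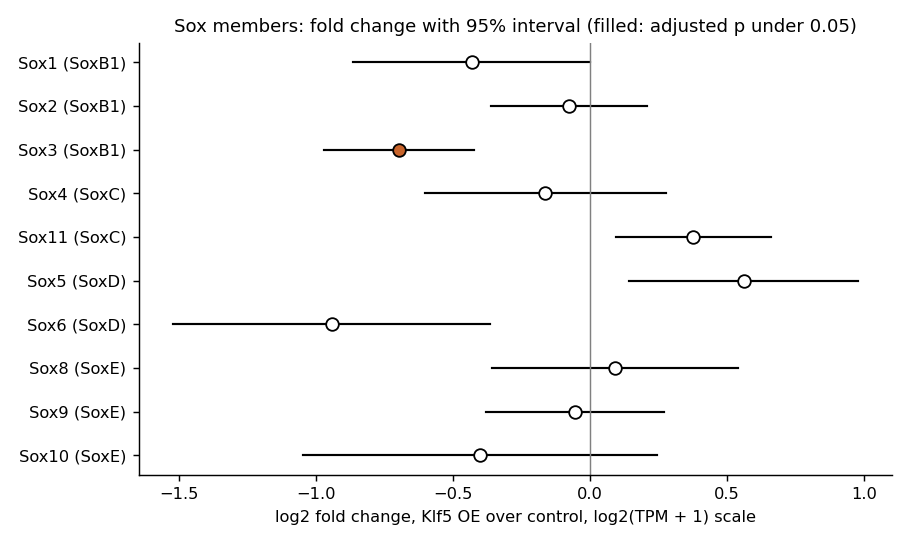
Log2 fold change of the 10 Sox members, Klf5 overexpression over control, on the log2(TPM + 1) scale (horizontal axis) with 95% intervals. The filled point marks an adjusted p under 0.05. Sox3 at -0.70 is the filled point, and the intervals of Sox5, Sox6 and Sox11 also lie to one side of 0 without passing the adjusted test, while the points of Sox2 and Sox9 lie close to 0 and change sides under rescaling to the rows given.

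Of the 9 other Sox genes looked up, 3 were expressed enough to be tested and 0 were called by limma, with 0 also at an unadjusted p under 0.05. The shares over all tested genes were 3.72% and 12.6%, so 0 of 3 says little. Sox21, the SoxB2 gene that counteracts SoxB1 activity, had 63.0 ± 9.84 TPM (SD, n = 6) and 58.1 ± 14.0 TPM (SD, n = 5; limma adjusted p = 0.873). Sox12, a SoxC gene, had 54.2 and 51.0 TPM (limma adjusted p = 0.889), and Sox13, the third SoxD gene, had 11.5 and 10.8 TPM (limma adjusted p = 0.973). Sox14, Sox15 and Sox17 were listed at 0 in every library, and Sox7, Sox18 and Sox30 stayed under 0.5 TPM throughout.

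For 7 of the 10 members RefSeq windows of the 250 bases before a transcription start were matched (GRCm38.p6), all but Sox3, Sox9 and Sox10. These were searched on both strands for CACCC, the short core of Krüppel-like factor sites, and for the GC box GGGCGG, which can overlap it. CACCC occurred in 52% of 32851 such windows of all genes. It was found 2 times each before Sox11 and Sox8 and 1 time in 1 of the 6 windows of Sox6, and it was not found in the windows of Sox1, Sox2, Sox4 and Sox5. The GC box occurred in 32.7% of all windows. It was found 3 times in the Sox1 window and 2 times each in those of Sox2, Sox11 and Sox8. It occurred 4 times in 1 of the 6 windows of Sox6 and was absent from those of Sox4 and Sox5. RefSeq starts can differ from the gene positions given here. The Sox5 window (chromosome 6, 143947107 to 143947356) and most Sox6 windows lie inside the annotated genes. Most of the Sox1 window (chromosome 8, 12395269 to 12395518) lies past the annotated start. A match is a description of these letters and no measure of binding.

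Partners and targets of the SoxB1 proteins were read from a list of 15 genes, of which 14 were tested, 1 was called higher and 0 were called lower, against 3.72% called over all genes. The list's median log2 fold change was -0.05, against -0.04 over all tested genes. At a limma unadjusted p under 0.05 there were 2 of 14, against 12.6% of all tested genes. Jag1, a Notch ligand, rose from 14.8 ± 3.70 in controls to 26.9 ± 6.24 TPM (SD, n = 6 and 5), and the log2 fold change was 0.83 ± 0.19 (SE, limma adjusted p = 0.0223). Jag1 was no longer called when low values were not filtered, or without control replicate 4 or overexpression replicate 1, 3 or 4 (adjusted p of 0.0506 to 0.0892). Fabp7, the brain lipid-binding protein of radial glia, had 3596 ± 1073 and 2105 ± 553 TPM at a limma adjusted p of 0.069, and it passed with a filter of 5 TPM (0.0483) and without control replicate 3 (0.0469). Of the tested genes of this list the POU partners Pou3f1, Pou3f2, Pou3f3 and Pou3f4, and also Pax6 and Nes, were not called.

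The glial partners and targets of SoxE held 3 of the 4 called genes of these lists. Of 16 genes 14 were tested, 2 were called higher and 1 lower, against 3.72% called over all genes. The list's median log2 fold change was -0.07. At a limma unadjusted p under 0.05 there were 7 of 14, against 12.6% of all tested genes. Besides the called genes these were Mmd2, Nfib and Olig1, all lower, and Sufu, higher. The 2 genes called higher, S100b and Erbb3, count in both shares, but they passed the filter only through the overexpression libraries. Of the called genes this leaves Ednrb, called lower. S100b, a calcium-binding protein of glia, had 0.271 to 2.04 TPM in controls and 5.79, 17.3, 8.20, 5.73 and 5.06 TPM with overexpression. Its log2 fold change was 2.19 ± 0.30 (SE, limma adjusted p = 0.00031), and it lies on the opposite strand of Dip2a, whose exons do not touch it. Erbb3, a neuregulin receptor of the oligodendrocyte and Schwann cell lineages, had 0 to 0.684 TPM in controls and 2.22, 3.52, 3.25, 3.57 and 3.33 TPM with overexpression. Its log2 fold change was 1.59 ± 0.23 (SE, limma adjusted p = 0.000627), and in 6 of the 23 other fits it fell under the filter and was not tested.

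Ednrb, an endothelin receptor of radial glia and astrocytes, was the SoxE target called lower, while 8 of the 14 tested had log2 fold changes below 0. It had 76.7 to 102 TPM in controls and 53.0, 47.9, 55.2, 31.1 and 33.4 TPM with overexpression. Its log2 fold change was -1.09 ± 0.16 (SE, limma adjusted p = 0.00054). For each of the 3 called genes of this list the groups did not overlap, as was so for 3.29% of all genes tested. The lack of overlap rests on the same values as the calls and is no separate support. For Erbb3 the filter itself set it, since with at most 0.684 TPM in controls Erbb3 passed only through the overexpression libraries. S100b did not reach 1 TPM in enough control libraries to pass without the overexpression libraries. S100b and Erbb3 are low-abundance transcripts, both under 2.1 TPM in every control. Sox10, with Sox8 and Sox9, did not pass the test beside them.

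Markers of other cell types moved with these genes. The 7 neural crest, Schwann cell and melanocyte markers summed to 0.565 to 1.53 TPM in controls and 1.69 to 4.00 TPM with overexpression, without overlap. The 1 tested gene of that list, the neurotrophin receptor Ngfr, rose (log2 fold change 1.41 ± 0.24, SE, limma adjusted p = 0.00249), while Foxd3 was at 0. Ngfr had at most 0.469 TPM in controls and at least 1.29 TPM with overexpression. It thus passed the filter only through the overexpression libraries, so its direction was set by the filter. The 4 astrocyte markers, one of which is S100b, summed to 33.8 to 83.0 and 16.2 to 38.7 TPM, with Aldh1l1 called lower (62.6 and 15.8 TPM). The other 3 astrocyte markers had higher means with overexpression, S100b as given, Aqp4 at 1.36 and 2.87 TPM without passing the test and Gfap at 0.015 and 0.237 TPM without being tested. Of the 5 oligodendrocyte progenitor markers Cspg4 was called higher, and the other 4 had log2 fold changes below 0 and were not called. Of the 4 choroid plexus and ependyma markers Aqp1 was called higher (0.242 and 2.84 TPM, limma adjusted p = 0.00343), Foxj1 was not called, Folr1 reached at most 0.578 TPM and Ttr was at 0. Aqp1, with at most 0.72 TPM in controls, also passed the filter only through the overexpression libraries. The part of these cell types in the SoxE target results was not tested.

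The remaining lists held no called gene. Of all tested genes 3.72% were called and 12.6% had a limma unadjusted p under 0.05. At those shares lists of 3 or 5 tested genes can readily hold no called gene, so these counts say little about the lists. All 5 neuronal SoxC targets were tested by limma, with 0 called and 0 at an unadjusted p under 0.05, and the smallest p belonged to Map2 (240 and 204 TPM, limma adjusted p = 0.445) and Tead2 (81.6 and 104 TPM, limma adjusted p = 0.47). Of 4 SoxD partners and targets 3 were tested and 0 called by limma, with 1 at an unadjusted p under 0.05. This was the corepressor Ctbp2, which had 50.7 and 30.2 TPM (limma adjusted p = 0.194) and passed with array weights (0.013) and without control replicate 1 (0.0163). Its exons overlap those of Fgfr2 on the same strand. Bcl11b, a factor of deep-layer cortical neurons, had 8.66 and 7.95 TPM (limma adjusted p = 0.956), and Fezf2 was at 0. Of 8 cartilage targets of Sox9, Sox5 and Sox6, 5 stayed under 1 TPM in every library and 3 were tested by limma with 0 called and 0 at an unadjusted p under 0.05. The smallest p belonged to Col11a2 (1.19 and 2.04 TPM, limma adjusted p = 0.492) and Col9a2 (3.61 and 2.09 TPM, limma adjusted p = 0.664).

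**Figure D5:**
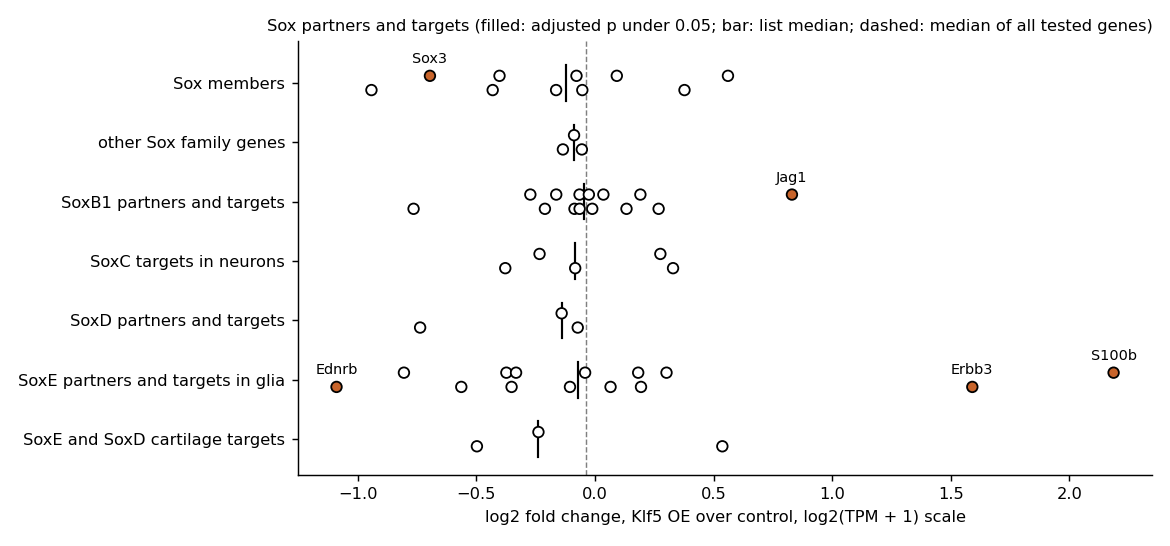
Log2 fold change on the log2(TPM + 1) scale (horizontal axis) of each tested gene in the Sox lists, 1 row per list and 1 point per gene, offset vertically for legibility. Filled and named points passed an adjusted p under 0.05, short bars are list medians and the dashed line is the median of all tested genes at -0.04.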

How the data were processed

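The deposited TPM values, which the authors made from reads before deposit, were used as 1 table with 1 column per library. Per the submitters' processing notes the build was GRCm38.p5 and the tools were DESeq2, HISAT2, HTSeq and StringTie, named without versions. The annotation release, the strand setting and which of the 2 kits made which library are not given in these sources. The 13549 genes that reached 1 TPM in 5 or more libraries were tested on log2(TPM + 1), a pseudocount of 1, with limma 3.58.1 (R 4.3.3, variance trend, two-sided, no covariate) and Benjamini-Hochberg adjustment at 0.05 over all of them. Log2 fold changes on this scale understate changes of genes near 1 TPM. The procedure was tested on simulated data. Ratios of members used two-sided exact permutation tests on the library values (Python 3.11.15, scipy 1.17.1). Coordinates and coding sequences are from GENCODE M21 of GRCm38, upstream windows from RefSeq.

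The members and all lists were chosen with earlier results of these data known. Named genes are the 10 members, the other Sox genes, Klf5, up to 4 called genes of each partner list or otherwise the 2 with the smallest p, and the 3 genes nearest to a called member. Genes that overlap a member were added after their values were seen, and so were the markers named and Mmd2, Nfib, Olig1 and Sufu. The value of 1 marker is not reported here. Alternatives were the pseudocount, filters, 4 scalings, variance options, array weights, a sex covariate, a replicate block and leaving out each library.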

Additional observations from a re-analysis of the deposited data

How the results depend on the processing

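The Sox3 call held in all 23 other fits, and the number of called members was 1 or 2 throughout. It was 2 after trimmed-mean scaling, quantile normalization and both rescalings (with Sox11), and with array weights, the replicate block or without overexpression replicate 1 (with Sox6). Over all genes 349 to 736 were called, against 504. The median log2 fold change over all tested genes was -0.04 as fitted and 0.04 after rescaling to the rows given. Sox3 had -0.70 as fitted and -0.615 after that rescaling. The lower genes, 194 as fitted, numbered 95 without a filter, 302 after trimmed-mean scaling, 311 after quantile normalization, 125 and 129 without control replicate 3 or 6, and 117 and 129 without overexpression replicate 2 or 5. Whether replicate numbers pair the libraries cannot be settled here. Deviations of same-numbered libraries correlated at 0.304, 0.064, -0.013, -0.040 and 0.024 for replicates 1 to 5. The value of replicate 1 lay above those of all differently numbered libraries, of which the highest was 0.136. The replicate block was fitted on 10 libraries, without control replicate 6, and called 426 genes (406 without that library and without the block), and for the pair ratios with the block 0 of 8 passed, since a paired test of 5 pairs cannot go below an exact p of 0.0625, against 2 as fitted and 2 to 3 without 1 library. Values near 0 changed sign for genes that were not called. After rescaling to the rows given the log2 fold change was 0.0038 for Sox2, 0.028 for Sox9 and 0.020 for Sox13, and 0.0032 for Sox9 when mitochondrial and ribosomal RNA-like rows were left out. Both with the replicate block and without control replicate 6 alone it was 0.013 for Sox9 and 0.032 for Bcl11b, and with array weights 0.114 for Bcl11b. Leaving out 1 library gave -0.058 to 0.228 for Sox8, -0.172 to 0.013 for Sox9, -0.229 to 0.0057 for Sox21, -0.171 to 0.034 for Sox13, -0.418 to 0.058 for Bcl11b, -0.213 to 0.033 for 2810468N07Rik and -0.023 to 0.258 for the ratio of Sox8 to Sox9. Without a sign change it gave -0.659 to -0.225 for Sox10, -0.313 to -0.053 for Sox4 and 0.167 to 0.729 for the ratio of Sox8 to Sox10. The cause of the other changes was not tested. TPM keeps no depth, so precision rests on the spread between libraries.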
